A study of Mus musculus with 6 samples.

Results

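The genes described here are 7 genes of prostaglandin biology: the cyclooxygenase genes Ptgs1 and Ptgs2, the terminal synthase genes Ptges, Ptgis and Ptgds, the gene of the degrading enzyme Hpgd and the receptor gene Ptger4. They were chosen by name from the 19069 genes listed on any plate, and all 7 were found. Mice received the carcinogen azoxymethane (AOM) and then cycles of dextran sulfate sodium (DSS), an agent that injures the colon lining, and tumors were taken from the colon. The AOM/DSS protocol comes from the methods of the study, since the labels list no treatment. Cells negative for EPCAM, CD45 and CD31 were sorted singly into plates of 384 wells and sequenced by SORT-seq, which tags the 3′ end of each transcript with a cell barcode and a molecular barcode. All 6 mice carried floxed Zeb1 alleles (Zeb1 fl/fl). The 3 Zeb1Fib-Ctrl mice were negative for the Col6a1Cre transgene and the 3 Zeb1Fib-deleted mice were positive for it, with 1 plate for each mouse. Col6a1 drives this Cre constitutively in mesenchymal cells, not in every fibroblast and not at a chosen time. The animals were age-matched littermates of both sexes, and their exact age is not given in the sources used here.

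Prostaglandins are made from arachidonic acid, which phospholipase A2 frees from membranes. The cyclooxygenases, PTGS1 (COX-1) and PTGS2 (COX-2), turn it into the unstable intermediate PGH2, and a terminal synthase then sets the product: PTGES makes PGE2, PTGIS makes prostacyclin and PTGDS makes PGD2. HPGD inactivates PGE2, and PTGER4 (EP4) is a receptor for it. In the colon, PGE2 from stromal cells is known for its part in mucosal repair and in tumor growth, and COX-2 is the inducible target of anti-inflammatory drugs.

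The genes lie on 4 chromosomes of the GRCm38 build in the GENCODE annotation. Ptgs1 (ENSMUSG00000047250) spans chr2:36230426-36252272 on the plus strand, Ptges (ENSMUSG00000050737) chr2:30889471-30929863 on the minus strand, Ptgis (ENSMUSG00000017969) chr2:167191805-167240604 on the minus strand and Ptgds (ENSMUSG00000015090) chr2:25466709-25470046 on the minus strand. Ptgs2 (ENSMUSG00000032487) spans chr1:150100031-150108227 on the plus strand, Hpgd (ENSMUSG00000031613) chr8:56294585-56321043 on the plus strand and Ptger4 (ENSMUSG00000039942) chr15:5206661-5244187 on the minus strand. Ptger4 shares 82 exonic bases with Ttc33, a listed gene on the opposite strand, so part of its count could be shared with that gene if strand was not used.

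ZEB1 is a repressor that binds E-boxes, of which CACCTG is the usual form. The 250 bases before the RefSeq transcription start are therefore shown for both cyclooxygenases, which make the common precursor, and for Hpgd, which removes the product (RefSeq, GRCm38.p6, 5′ to 3′ in the direction of the gene). Capitals mark CACCTG or its reverse complement CAGGTG. The windows are chr2:36230176-36230425, chr1:150099781-150100030 and chr8:56294302-56294551, each on the plus strand.

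Ptgs1: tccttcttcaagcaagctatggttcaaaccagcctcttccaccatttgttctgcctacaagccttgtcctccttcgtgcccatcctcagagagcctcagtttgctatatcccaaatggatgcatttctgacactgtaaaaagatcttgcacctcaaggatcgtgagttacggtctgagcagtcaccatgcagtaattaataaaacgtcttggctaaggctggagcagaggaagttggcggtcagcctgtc

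Ptgs2: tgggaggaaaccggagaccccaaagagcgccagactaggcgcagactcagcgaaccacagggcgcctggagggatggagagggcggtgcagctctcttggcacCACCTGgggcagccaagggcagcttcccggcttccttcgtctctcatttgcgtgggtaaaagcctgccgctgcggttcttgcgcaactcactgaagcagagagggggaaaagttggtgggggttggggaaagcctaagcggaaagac

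Hpgd: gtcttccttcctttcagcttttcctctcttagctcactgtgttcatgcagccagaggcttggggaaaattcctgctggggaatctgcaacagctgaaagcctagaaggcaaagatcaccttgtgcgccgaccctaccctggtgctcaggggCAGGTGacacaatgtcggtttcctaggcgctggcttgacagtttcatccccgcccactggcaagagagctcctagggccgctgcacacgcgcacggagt

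In the Ptgs2 window CACCTG stood 147 to 142 bases before the start, and in the Hpgd window CAGGTG stood 99 to 94 bases before it. The Ptgs1 window held neither. Of 32851 mouse promoter windows of this length, 17.2% held the motif on either strand. A promoter entry was found for 6 of the 7 genes, all but Ptgis, and the windows of Ptges, Ptgds and Ptger4 held neither form. GGGCGG, the letters of a GC box, stood in the windows of Ptgs2, Hpgd, Ptges and Ptger4 on either strand, and in 32.7% of all windows. The motif matches are descriptions of the letters, and binding was not measured.

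Of 2304 wells, 1233 passed the study's limits of 100 to 6000 genes and under 10% mitochondrial counts, 583 from Zeb1Fib-Ctrl and 650 from Zeb1Fib-deleted mice. A plate kept 109 to 298 wells and 667892 to 3141934 transcripts, and the median well held between 1687 and 11164 transcripts. Depth and cell makeup therefore differed between mice of 1 genotype. Marker lists assigned 449 wells to fibroblasts, 393 to neutrophils, 81 to pericytes, 34 to smooth muscle, 54 to glandular and 37 to squamous epithelium, and 173 to no class. Fibroblast wells were split into 178 iCAF-like (inflammatory fibroblast), 111 telocyte-like (Bmp- and Wnt5a-expressing subepithelial fibroblast), 124 Cxcl13/Grem1 and 36 further wells. The markers of each subtype were found in 32.0 to 95.5% of iCAF-like, 18.9 to 97.3% of telocyte-like and 57.3 to 100% of Cxcl13/Grem1 wells. The iCAF-like markers were also found in 4.03 to 97.6% of Cxcl13/Grem1 wells, with a median of 11.7%. Telocyte-like markers were found in 0.807 to 68.5% of Cxcl13/Grem1 wells, with a median of 28.2%. Cxcl13/Grem1 markers were found in 9.01 to 58.6% of telocyte-like wells, with a median of 27.0%. The fibroblast markers were each found in 80.6 to 99.8% of the fibroblast wells, with a summed level of 46530 to 62220 CPM (a gene's transcripts over all transcripts of the wells summed, times 1000000) over the plates, the pericyte markers in 35.8 to 100% of pericyte wells and the neutrophil markers in 62.6 to 99.2% of neutrophil wells. Fibroblast markers were also found in pericyte wells, the median marker in 87.65% of them, with a summed level of 5950 to 25640 CPM over the plates. In neutrophil wells this was 14.5% and 1304 to 5802 CPM. Col1a1, a fibroblast marker, was found in 91.4% of pericyte and 38.4% of neutrophil wells. Neutrophil wells carried Ptprc, the CD45 gene, in 77.1% of cases although the sort was CD45-negative, and glandular epithelium wells carried Epcam in 77.8%. Neutrophil wells were shallow, with a median of 1442 transcripts against 12250 in fibroblast wells, and 178 of them came from Zeb1Fib-Ctrl replicate 2. That mouse gave 16 fibroblast wells and Zeb1Fib-deleted replicate 3, sequenced in a separate run, gave 9. None of the 7 genes is in a marker list, so the gate did not use them.

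Ptgs2 had the most transcripts of the 7 genes in these wells, with 2357 in 409 wells. Ptges followed with 1197 transcripts in 403 wells, then Ptgs1 with 790.4 in 253 wells, Ptgis with 540.2 in 165 wells, Ptger4 with 333 in 180 wells and Hpgd with 273.5 in 69 wells. Ptgds had 7 transcripts in 6 wells, on 3 plates. These totals also depend on the 3′ capture of each gene and are not used to rank the genes. They do show that Ptgds could not be compared at this depth and that Hpgd values rest on few wells.

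The transcripts came from different cells for each enzyme. Fibroblast wells held 36.4% of the wells and 60.1% of all transcripts, the share against which those of the genes can be read. They held 95% of Ptgis, 83.7% of Ptges, 82.3% of Ptger4, 69.6% of Ptgs1, 58.6% of Ptgs2 and 29.6% of Hpgd transcripts. Ptgis came from the iCAF-like wells, with 86.1% of its transcripts. Telocyte-like wells supplied 42.8% of Ptgs1 with 17.5% of all transcripts, and neutrophil wells supplied 17.4% of Ptgs2 with 6.79% of all transcripts. By mouse, the neutrophil share of Ptgs2 ran from 1.60 to 93.6% and the fibroblast share from 0 to 88.8%. Squamous epithelium wells held 62.7% of Hpgd with 5.14% of all transcripts. By mouse this Hpgd share was 60.0, 0 and 17.2% in Zeb1Fib-Ctrl and 37.5, 85.6 and 0% in Zeb1Fib-deleted replicates 1, 2 and 3. Zeb1Fib-deleted replicate 2 held 142.5 of the 171.5 Hpgd transcripts of squamous wells.

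**Figure D1:**
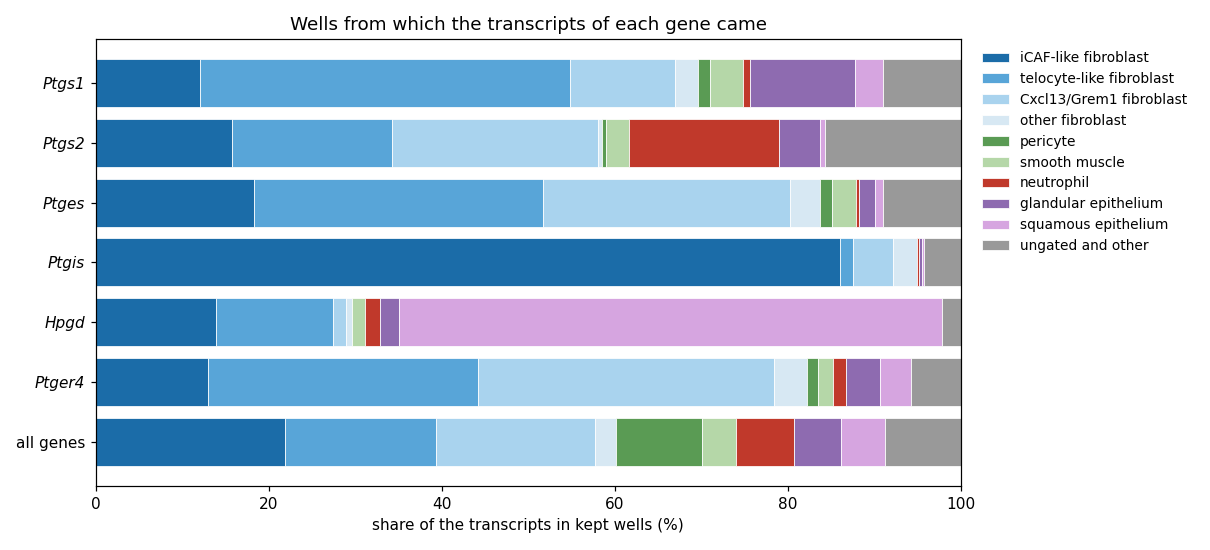
Share of each gene's transcripts in the 1233 wells (horizontal axis, percent) by gated class, with all genes together in the lowest bar; the colours name the classes and "ungated and other" joins the 173 ungated wells with the glia, lymphoid, macrophage and mast wells. All mice are pooled. Ptgis is drawn almost whole from iCAF-like wells (86.1%) and Hpgd mostly from squamous epithelium wells (62.7%, 0 to 85.6% by mouse). A neutrophil part is visible for Ptgs2 (17.4%, 1.60 to 93.6% by mouse).

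Among the compared classes Ptgs1, the constitutive cyclooxygenase, was highest in telocyte-like fibroblasts. Its level there, in CPM, was 159, 108 and 316 in Zeb1Fib-Ctrl replicates 1, 2 and 3 and 185, 155 and 350.5 in Zeb1Fib-deleted replicates 1, 2 and 3. In iCAF-like wells of the same mice it was 25.9, 57.4 and 231 in Zeb1Fib-Ctrl and 49.1, 33.3 and 117 in Zeb1Fib-deleted, lower than in the telocyte-like wells in 6 of 6 mice. The wells behind these values number as few as 3 per mouse, and only the sums of at least 10 wells entered a test. Pericyte sums of at least 10 wells lay between 7.17 and 11.2 CPM and neutrophil sums between 0 and 14.6 CPM. Every fibroblast sum, at 53.7 to 234 CPM, was above all of these. Glandular epithelium wells, which entered no comparison, held 185 CPM pooled, against 199 CPM in telocyte-like wells.

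In a fit over 14 plate-by-class sums, with the plate as a term, 4 of the 7 genes passed the filter on low counts, and Ptgds, Hpgd and Ptger4 did not. A gene may pass this filter through the class in which it is high, so the 4 are not a sample of the pathway. Of 4705 genes tested, 55.9% were called, 36.3% higher in fibroblasts than in the mean of pericytes and neutrophils and 19.6% lower (edgeR quasi-likelihood test, Benjamini-Hochberg adjusted p under 0.05). The 4 genes were all called higher, against a mean of pericytes and neutrophils taken on the log2 scale. For Ptgs2 the pooled pericyte level was 10.4 CPM and the neutrophil level 619 CPM, so fibroblasts, at 236 CPM, stood below neutrophils. Ptgs1 was higher by 3.31 ± 0.41 on the log2 scale (SE, adjusted p = 8.9e-15), Ptges by 3.38 ± 0.37 (adjusted p = 2.0e-18) and Ptgs2 by 1.03 ± 0.36 (adjusted p = 0.0091). In this fit the p-values, here and below, equal those of a normal curve at the difference over its SE. They thus use a spread shared over genes, and pericytes entered from 3 mice. Their size does not measure how well a difference repeated between mice. Pericytes were lower than the mean of fibroblasts and neutrophils for all 4 genes, against 17.5% of all genes called lower and 26.4% higher. Of these 4 calls, only that of Ptgs2 held in each alternative run. The mean includes the fibroblasts, and Ptgs2 alone was clearly lower in pericytes than in neutrophils. Pooled pericyte and neutrophil levels were 11.4 and 10.6 CPM for Ptgs1, 17.6 and 7.57 CPM for Ptges and 0 and 1.51 CPM for Ptgis.

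Among the fibroblast subtypes the fit held 8 sums. With the plate as a term, its subtype differences rested on Zeb1Fib-Ctrl replicate 1 and Zeb1Fib-deleted replicate 1, the only mice with at least 10 wells of each subtype. Zeb1Fib-Ctrl replicate 3 and Zeb1Fib-deleted replicate 2 gave a single subtype each, so their sums carried no difference. Of 8683 genes tested, 14.7% were called, 6.89% higher and 7.77% lower in telocyte-like wells than in the mean of the other subtypes. There, 6 of the 7 genes were tested, 2 were called higher and 1 lower. Ptgs1 was higher by 1.90 ± 0.23 (SE, log2 scale, edgeR, adjusted p = 5.2e-05), a call that held in each alternative run. Runs that left out another mouse kept the sums that decide this call, so they do not test it. In iCAF-like wells, where 9.08% of genes were called higher and 6.48% lower, 2 of the 6 genes were called higher and 2 lower. Ptgs1 was lower, with a log2 difference of -1.16 ± 0.28 (edgeR, adjusted p = 0.0098). The iCAF-like call was lost with DESeq2 (adjusted p = 0.22) and with a margin on the gate (adjusted p = 0.071). The difference between Cxcl13/Grem1 wells and the other subtypes was -0.75 ± 0.26 and not called (adjusted p = 0.20, edgeR), beside 2.03% of genes called higher and 0.726% lower.

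A telocyte-like well held Ptgs1 in 81.1% of cases (95% exact interval 72.5 to 87.9%) and an iCAF-like well in 24.7% (18.6 to 31.7%). Intervals of this kind cover counting error only, since the wells of a mouse are not replicates. Once each well was thinned to 500 barcodes, the shares were 7.21% (3.16 to 13.7%) and 1.69% (0.349 to 4.85%), and the share in neutrophil wells was 0.533% (0.0646 to 1.91%, 18 shallower wells left out). The order of the subtypes was thus the same after thinning, but the intervals of telocyte-like and iCAF-like wells overlapped.

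Ptgs2, the inducible cyclooxygenase, was higher in neutrophil than in fibroblast or pericyte wells. Its neutrophil level was 334, 648 and 720.4 CPM in Zeb1Fib-Ctrl replicates 1, 2 and 3 and 579, 1070.5 and 423 CPM in Zeb1Fib-deleted replicates 1, 2 and 3. In fibroblast wells of the same mice it was 313, 30.6 and 269 CPM and 211, 192 and 0 CPM. The neutrophil value was the higher one in 6 of 6 mice, by little in Zeb1Fib-Ctrl replicate 1 and with 9 fibroblast wells in Zeb1Fib-deleted replicate 3. In Zeb1Fib-Ctrl replicate 1, where the neutrophil value rests on 11 transcripts, Cxcl13/Grem1 fibroblasts (545 CPM) and smooth muscle wells (363 CPM) stood above it. Over all wells the ratio of neutrophil to fibroblast level was 2.62. Pericyte sums of at least 10 wells held 50.2 and 0 CPM in Zeb1Fib-Ctrl replicates 1 and 3 and 3.73 CPM in Zeb1Fib-deleted replicate 1, so that the pooled fibroblast level was 22.7-fold that of pericytes.

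**Figure D2:**
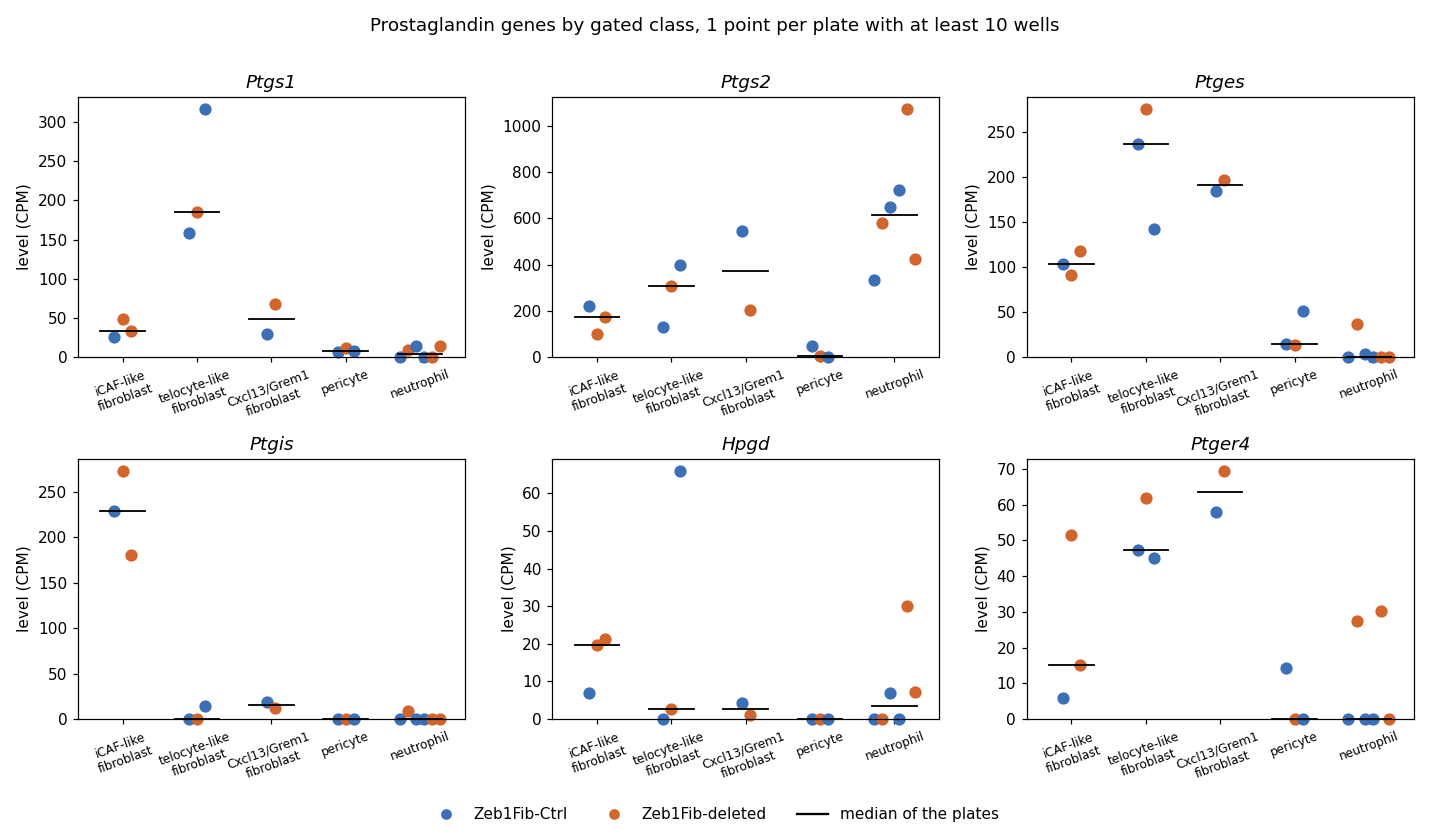
Level of 6 genes (vertical axis, CPM, a separate scale for each panel) in each gated class (horizontal axis), 1 point per mouse with at least 10 wells of the class, blue for Zeb1Fib-Ctrl and orange for Zeb1Fib-deleted, with a line at the median. Of the classes drawn, Ptgis stands at 180.2 to 272 CPM in iCAF-like wells and at 18.8 CPM or less in the others. Ptgs1 is highest among them in telocyte-like wells, and Ptgs2 is the only one of the 6 whose highest points are in neutrophil wells.

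In the fit, neutrophils were higher than the mean of fibroblasts and pericytes by 4.13 ± 0.39 for Ptgs2 (SE, log2 scale, edgeR, adjusted p = 2.8e-25), in a comparison that called 27.5% of all genes higher and 44.0% lower. The pericyte difference was -5.16 ± 0.55 (adjusted p = 3.0e-19). Both calls held in each alternative run. The fibroblast call for Ptgs2 did not: it was lost with DESeq2 (adjusted p = 0.079), without the plate term (0.064), with sums of at least 3 wells (0.23), without Zeb1Fib-deleted replicate 1 (0.23) and without Zeb1Fib-Ctrl replicate 3 (0.14). Thinned to 500 barcodes, 20.5% of neutrophil wells held a Ptgs2 barcode (95% exact interval 16.6 to 25.0%, 375 wells), 7.29% of fibroblast wells (5.04 to 10.1%, 439 wells) and 1.23% of pericyte wells (0.0312 to 6.69%, 81 wells). Unthinned shares were 42.7% in neutrophil and 40.5% in fibroblast wells, at median depths of 1441 and 12182 barcodes.

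The fibroblast subtypes did not differ in Ptgs2 beyond their spread. In iCAF-like wells the level was 219.7 CPM in Zeb1Fib-Ctrl replicate 1 and 101 and 173 CPM in Zeb1Fib-deleted replicates 1 and 2. In telocyte-like wells it was 131 and 397 CPM in Zeb1Fib-Ctrl replicates 1 and 3 and 308 CPM in Zeb1Fib-deleted replicate 1, and in Cxcl13/Grem1 wells 545 CPM in Zeb1Fib-Ctrl replicate 1 and 202 CPM in Zeb1Fib-deleted replicate 1. The 3 ranges overlap. No subtype was called (edgeR, adjusted p = 0.27 for iCAF-like, 0.96 for telocyte-like and 0.41 for Cxcl13/Grem1), although without a filter on low genes Cxcl13/Grem1 was called higher (log2 difference 0.80, adjusted p = 0.0059) and iCAF-like lower (-0.73, adjusted p = 0.013).

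Ptgs2 was unevenly spread over fibroblasts. The 10 fibroblast wells with the most Ptgs2 held 38.6% of its fibroblast transcripts, with up to 94.1 in a single well, while the top 10 wells for Ptges held 12.1% and those for Ptgs1 18.2% of their transcripts. The 10 wells came from 3 mice: 5 Cxcl13/Grem1 and 2 iCAF-like wells of Zeb1Fib-Ctrl replicate 1, 2 telocyte-like wells of Zeb1Fib-deleted replicate 1 and 1 telocyte-like well of Zeb1Fib-Ctrl replicate 3. Within a subtype the top 10 wells held 73.5% of the telocyte-like, 65.5% of the Cxcl13/Grem1 and 48.0% of the iCAF-like transcripts. In neutrophils, the top 10 of 393 wells held 18.6%. The 182 fibroblast wells with Ptgs2 carried 120.1 CPM of neutrophil markers in sum and the 267 without it 147 CPM, against 100100 CPM in neutrophil wells.

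**Figure D3:**
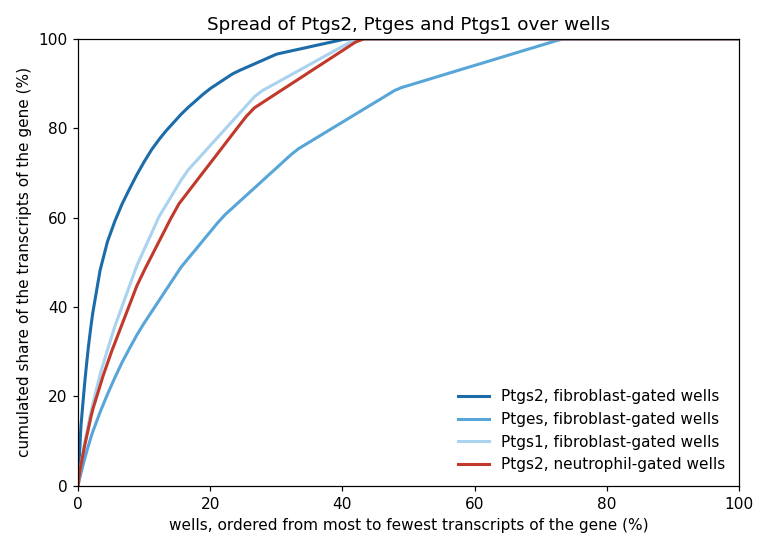
Cumulated share of a gene's transcripts (vertical axis, percent) over wells ordered from the most to the fewest transcripts of that gene (horizontal axis, percent of wells), for Ptgs2, Ptges and Ptgs1 in 449 fibroblast wells and Ptgs2 in 393 neutrophil wells. The curve for Ptgs2 in fibroblasts rises most steeply, since 10 wells hold 38.6% of the transcripts, and the one for Ptges most slowly, since it was found in 73.3% of the wells.

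Ptges, which makes PGE2 from the cyclooxygenase product, was found in most fibroblast wells. Its fibroblast level was 158, 139.7 and 150.0 CPM in Zeb1Fib-Ctrl replicates 1, 2 and 3 and 205, 135 and 196 CPM in Zeb1Fib-deleted replicates 1, 2 and 3. These 6 values span less than a doubling, while the number of wells behind them went from 9 to 148. Pericyte sums of at least 10 wells held 13 to 51.2 CPM and neutrophil sums 0 to 36.7 CPM, with 0 in 4 of 6 mice. The fibroblast and the other ranges did not overlap.

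Ptges was found in 73.3% of fibroblast wells (95% exact interval 68.9 to 77.3%), in 12.3% of pericyte wells (6.08 to 21.5%) and in 1.27% of neutrophil wells (0.414 to 2.94%). After thinning to 500 barcodes the shares were 6.15% (4.09 to 8.82%), 2.47% (0.30 to 8.64%) and 0.267% (0.00675 to 1.48%). Between subtypes, iCAF-like wells were lower, with a log2 difference of -1.0 ± 0.21 (SE, edgeR, adjusted p = 0.0044), and telocyte-like wells higher by 0.78 ± 0.19 (adjusted p = 0.013). Both calls were lost with DESeq2 (adjusted p = 0.11 and 0.30), and the telocyte-like call also in 5 other alternatives. On the level scale, iCAF-like wells held 104, 57.4 and 99.0 CPM in Zeb1Fib-Ctrl and 90.8, 118 and 58.5 CPM in Zeb1Fib-deleted replicates 1, 2 and 3, and telocyte-like wells 237, 141 and 142 CPM and 275, 233 and 389.6 CPM. Telocyte-like wells were higher than iCAF-like wells in 6 of 6 mice, in Zeb1Fib-deleted replicate 3 against 3 iCAF-like transcripts. Cxcl13/Grem1 wells held 184, 284 and 206 CPM and 197, 166 and 99.3 CPM, on as few as 2 wells per mouse. They too were above iCAF-like wells in 6 of 6 mice, and telocyte-like wells were above them in 4 of 6. The lower Ptges of pericytes against the mean of fibroblasts and neutrophils (-1.47 ± 0.63, edgeR, adjusted p = 0.044) rested on 1 library: without Zeb1Fib-deleted replicate 1 the value was 0.34. The lower Ptges of neutrophils (-1.91 ± 0.66, edgeR, adjusted p = 0.0069) was lost in 4 alternatives, among them leaving out Zeb1Fib-Ctrl replicate 2 (adjusted p = 0.051) or Zeb1Fib-Ctrl replicate 3 (0.099).

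Ptgis, the prostacyclin synthase gene, marked the iCAF-like wells of each mouse. Its level there was 229, 215 and 154 CPM in Zeb1Fib-Ctrl replicates 1, 2 and 3 and 272, 180.2 and 234 CPM in Zeb1Fib-deleted replicates 1, 2 and 3. In telocyte-like wells it was 0, 24.9 and 13.9 CPM and 0, 9.69 and 0 CPM, and in Cxcl13/Grem1 wells 18.8, 0 and 0 CPM and 12.2, 23.7 and 0 CPM. The iCAF-like range lay above all other values. The pooled iCAF-like level was 46.4-fold that of telocyte-like and 15.6-fold that of Cxcl13/Grem1 wells, and the subtype difference was called (edgeR, adjusted p = 8.7e-08) in each alternative run. As for Ptgs1, the runs that left out a mouse kept the sums that decide this call and do not test it.

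No Ptgis transcript was counted in 81 pericyte or 34 smooth muscle wells, and 1 was counted in 393 neutrophil wells. Against the 3 transcripts that a count of 0 allows in the pooled pericytes, the pooled level was at least 70.3-fold higher in iCAF-like and at least 28.2-fold higher in all fibroblast wells. The fibroblast difference was called (edgeR, adjusted p = 4.3e-18). Ptgis was found in 72.5% of iCAF-like wells (95% exact interval 65.3 to 78.9%), in 10.5% of Cxcl13/Grem1 wells (5.70 to 17.3%) and in 3.60% of telocyte-like wells (0.990 to 8.97%). After thinning to 500 barcodes these shares were 9.55% (5.66 to 14.8%), 0.806% (0.0204 to 4.41%) and 0.901% (0.0228 to 4.92%).

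Ptgds, which makes PGD2, was near the limit of detection. It was listed on the plates of Zeb1Fib-Ctrl replicate 3 with 2 transcripts and of Zeb1Fib-deleted replicates 2 and 3 with 4 and 1 transcripts. Of these, 3 transcripts in 2 wells were in iCAF-like fibroblasts of Zeb1Fib-deleted replicate 2. Ptgds passed no filter and was not compared.

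Hpgd, which inactivates PGE2, differed in its source from the synthesis genes. Squamous epithelium wells held 343 CPM of it over all plates, in 14 of 37 wells, and 27 of the 37 wells came from Zeb1Fib-deleted replicate 2. Fibroblast wells held 4.61, 69.9 and 36.1 CPM in Zeb1Fib-Ctrl replicates 1, 2 and 3 and 5.11, 21.0 and 60.2 CPM in Zeb1Fib-deleted replicates 1, 2 and 3. No transcript was counted in the pericyte wells, so the pooled fibroblast level was at least 4.45-fold higher. Within fibroblasts, the iCAF-like wells held 7.07, 28.7 and 0 CPM in Zeb1Fib-Ctrl and 19.6, 21.2 and 156 CPM in Zeb1Fib-deleted replicates 1, 2 and 3. The higher iCAF-like level in the subtype fit (2.61 ± 0.83 on the log2 scale, SE, edgeR, adjusted p = 0.048) stood at the threshold and was lost in 6 alternatives, among them DESeq2 (adjusted p = 0.28) and the fits without Zeb1Fib-Ctrl replicate 3 (0.062) or Zeb1Fib-deleted replicate 2 (0.055). Telocyte-like wells held 116 and 65.9 CPM in Zeb1Fib-Ctrl replicates 2 and 3 and 0 to 19.4 CPM in the other 4 mice, so the order of the subtypes differed between mice.

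Ptger4, the EP4 receptor gene, was found in fibroblasts of all 6 mice. Its fibroblast level was 32.3, 96.1 and 36.1 CPM in Zeb1Fib-Ctrl replicates 1, 2 and 3 and 63.1, 19.8 and 128 CPM in Zeb1Fib-deleted replicates 1, 2 and 3. The highest value rests on 17 transcripts in 9 wells. Neutrophil sums held 0 CPM in 4 mice and 27.6 and 30.1 CPM in Zeb1Fib-deleted replicates 1 and 2, and the pericyte sums of at least 10 wells held 14.3 CPM in Zeb1Fib-Ctrl replicate 1 and 0 in the other two mice.

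Ptger4 was counted at a lower level in iCAF-like than in both other fibroblast subtypes, but the order rests on Zeb1Fib-Ctrl replicate 1 and Zeb1Fib-deleted replicate 1, with 5 and 21 iCAF-like transcripts. In each of the other 4 mice at least 1 of the 3 values comes from 1 to 3 transcripts. In iCAF-like wells it was 5.89, 43.1 and 11 CPM in Zeb1Fib-Ctrl and 51.5, 15.1 and 58.5 CPM in Zeb1Fib-deleted replicates 1, 2 and 3. The matching telocyte-like values were 47.3, 99.5 and 45.1 CPM and 61.9, 19.4 and 234 CPM, and the Cxcl13/Grem1 values 58, 181 and 41.3 CPM and 69.3, 35.6 and 66.2 CPM. The difference of iCAF-like wells was -1.19 ± 0.44 (SE, log2 scale) and was not called in the fit with the filter on low genes (edgeR, adjusted p = 0.087), but was called without that filter (adjusted p = 0.0067). Telocyte-like and Cxcl13/Grem1 wells did not differ in a fixed direction, with the first higher in 2 of 6 mice. In Cxcl13/Grem1 wells Ptger4 was found in 60.7% of the 61 wells with Ptgs2 and in 31.7% of the 63 without it, whose median depths were 14665 and 12271 transcripts. In telocyte-like wells these shares were 43.8% and 46.0%. The part of depth in these shares was not tested.

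The genes whose levels were most like each member were found over 17 plate-by-class sums and 6473 genes, by Pearson r of log2(CPM + 10), as a description. The sums share plates and depth. For Ptgs1 these were Tmem158 (r = 0.934), Bmp7 (0.930) and Pcdh7 (0.925), and for Ptgis Pcolce2 (0.976), Gdf10 (0.938) and Cilp (0.925). Bmp7, Gdf10 and Cilp are markers used to gate the subtypes. For Ptges they were Emilin1 (0.968), Fam149a (0.965) and Slc8a1 (0.964), and for Ptgs2 Rnf130 (0.910), Lsp1 (0.889) and Plekho2 (0.886). Ptger4 was most like Pde3b (0.896), Ereg (0.876), which encodes the growth factor epiregulin, and Pla2g4a (0.873), the cytosolic phospholipase A2 gene. No gene reached an r above 0.65 with Hpgd.

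The remaining pathway was followed with a list of 28 genes for phospholipases, other synthases, transport, other receptors and the leukotriene branch, of which 26 were listed on a plate. In the comparison of classes 5 of them were tested. Fibroblasts were higher for 1 and lower for 2, pericytes higher for 1 and lower for 2, and neutrophils higher for 2 and lower for 1, beside the shares of all genes given above. Pla2g4a, which frees arachidonic acid, had a level of 26.8 to 142 CPM in the fibroblast sums, 0 to 1.86 CPM in pericytes and 0 to 18.4 CPM in neutrophils, and was higher in fibroblasts by 4.51 ± 0.51 (SE, log2 scale, edgeR, adjusted p = 2.7e-17). Ptgir, the prostacyclin receptor gene, held 65.8 to 125 CPM in pericytes, 0 to 12.3 CPM in fibroblasts and 0 to 42.4 CPM in neutrophils, and was higher in pericytes by 2.75 ± 0.52 (edgeR, adjusted p = 1.5e-06). In iCAF-like wells, the class with most of the synthase Ptgis, Ptgir was found in 21 of 178 wells.

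Of the leukotriene genes, Alox5 and Alox5ap were higher in neutrophils than in fibroblasts and pericytes. Alox5ap, which presents arachidonic acid to 5-lipoxygenase, was at 934 to 1612 CPM in neutrophils, at 0 to 2.79 CPM in fibroblasts and at 0 to 7.31 CPM in pericytes (edgeR, adjusted p = 3.5e-90 for neutrophils). Alox5, the 5-lipoxygenase gene itself, was at 91.1 to 199 CPM in neutrophils and at 0 in every fibroblast and pericyte sum (adjusted p = 2.9e-28). Lta4h, which makes leukotriene B4, was at 41.0 to 64.6 CPM in fibroblasts, 14.6 to 54 CPM in pericytes and 0 to 72.8 CPM in neutrophils, and Ltc4s, which makes leukotriene C4, at 0 to 3.59 CPM in fibroblasts and at 0 in every pericyte and neutrophil sum, and neither passed the filter of this fit. Ptges3, a cochaperone also known as cytosolic PGE synthase, was lower in neutrophils, with a log2 difference of -1.16 ± 0.38 (edgeR, adjusted p = 0.0040) and was found in every class.

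Among fibroblast subtypes 10 genes of the list were tested. Telocyte-like wells were higher for 4 and lower for none, iCAF-like wells higher for none and lower for 3, and Cxcl13/Grem1 wells were called for none. Of all 8683 genes, 6.89% were called higher and 7.77% lower in telocyte-like, 9.08% and 6.48% in iCAF-like and 2.03% and 0.726% in Cxcl13/Grem1 wells. Ptger2, the EP2 receptor gene, held 34.7 to 52.9 CPM in telocyte-like wells and 0 to 1.51 CPM in iCAF-like wells. It was called higher in the first (edgeR, adjusted p = 0.0010) and lower in the second (adjusted p = 0.00060). In Cxcl13/Grem1 wells it stood between them, at 20.3 to 25.6 CPM. Tbxas1, the thromboxane synthase gene, held 16.7 to 40.0 CPM in telocyte-like wells and 0 in the iCAF-like sums (adjusted p = 0.0014 for telocyte-like). Abcc4, an exporter of prostaglandins, was higher in telocyte-like wells by 1.76 ± 0.41 (edgeR, adjusted p = 0.0086). Pla2g4a was higher there by 0.80 ± 0.21 (adjusted p = 0.016) and lower in iCAF-like wells with a difference of -1.22 ± 0.23 (adjusted p = 0.0021). Pla2g4a held 134 to 191 CPM in telocyte-like, 98.5 to 125 CPM in Cxcl13/Grem1 and 16.7 to 56.4 CPM in iCAF-like wells. Cxcl13/Grem1 wells held less of Abcc4 (10.1 to 18.2 CPM) and Tbxas1 (1.45 to 4.87 CPM). With DESeq2 the calls of Abcc4 and Pla2g4a and the iCAF-like call of Tbxas1 were lost.

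The deletion of Zeb1 was first checked on the Zeb1 count. Over all wells the Zeb1 level was 102, 59.9 and 66.4 CPM in Zeb1Fib-Ctrl replicates 1, 2 and 3 and 55.1, 49.5 and 30.6 CPM in Zeb1Fib-deleted replicates 1, 2 and 3. In fibroblast wells it was 115, 118 and 103 CPM and 57.1, 77.0 and 45.2 CPM. The groups did not overlap in either set (exact two-sided permutation test, p = 0.1 in both, the smallest possible with 3 mice per group). The log2 difference, Zeb1Fib-deleted minus Zeb1Fib-Ctrl, was -0.84 ± 0.34 over all wells and -0.70 ± 0.25 in fibroblast wells (SE, edgeR, unadjusted p = 0.043 and 0.026, adjusted p = 0.9998 and 0.9999). Reads come from the 3′ end, and their place relative to the deleted exon is not given in the sources used here, so this count is no direct measure of the deletion.

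The genotypes were then compared for the prostaglandin genes. Over all wells, 10424 genes were tested, 6 of the 7 genes among them, and 0.0% were called by edgeR, with 73 at an unadjusted p under 0.05 and 1 called by DESeq2. In fibroblast wells 0.0% of 8795 genes were called by edgeR, with 156 at an unadjusted p under 0.05 and 0 by DESeq2, and in neutrophil wells 0.0% of 1314, with 50 and 0. None of the members tested was called, 6 over all wells, 6 in fibroblast wells and Ptgs2 alone in neutrophil wells, against this background of no calls by edgeR. The p-values measure the spread between 3 mice per group, and between 3 Zeb1Fib-Ctrl and 2 Zeb1Fib-deleted mice in fibroblast wells, where Zeb1Fib-deleted replicate 3 had too few wells.

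Ptgs2 over all wells was 282, 302 and 219 CPM in Zeb1Fib-Ctrl replicates 1, 2 and 3 and 188, 260.5 and 284 CPM in Zeb1Fib-deleted replicates 1, 2 and 3. The means were 268 ± 43.3 and 244 ± 49.8 CPM (SD, n = 3 mice each; exact two-sided permutation test, p = 0.6, smallest possible p = 0.1). In fibroblast wells they were 204 ± 152 CPM (n = 3) and 202 ± 14.0 CPM (n = 2, without Zeb1Fib-deleted replicate 3), and in neutrophil wells 567 ± 205 and 691 ± 338.1 CPM (n = 3 each). The log2 differences were -0.26 ± 0.33, -0.04 ± 0.68 and 0.22 ± 0.38 (SE, edgeR), each smaller than its error. Leaving out wells with Ptprc or Epcam turned the first to 0.08 and the third to -0.20. The values over all wells came from unlike cells: fibroblast wells held 88.8% of Ptgs2 in Zeb1Fib-Ctrl replicate 1, and neutrophil wells 93.6% in Zeb1Fib-Ctrl replicate 2. A single ungated well held 161 of 421 transcripts in Zeb1Fib-deleted replicate 2, and a single glandular epithelium well 97.1 of 195 in Zeb1Fib-deleted replicate 3. The part of cell makeup in these values was not tested.

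Ptgs1 over all wells was 70.6, 38.9 and 184 CPM in Zeb1Fib-Ctrl and 81.2, 32.8 and 99.0 CPM in Zeb1Fib-deleted replicates 1, 2 and 3, and the groups overlapped. The log2 difference was -0.47 ± 0.57 over all wells and -0.53 ± 0.56 in fibroblast wells (SE, edgeR, adjusted p = 0.9998 and 0.9999). Without Zeb1Fib-Ctrl replicate 3, the mouse with the highest value, these were 0.17 and 0.29. The share of fibroblast wells that were telocyte-like also differed between mice, with 24 of 41 in Zeb1Fib-Ctrl replicate 3 and 22 of 148 in Zeb1Fib-Ctrl replicate 1, and its part in the Ptgs1 levels was not tested.

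Ptges over all wells was 139, 50.9 and 113 CPM in Zeb1Fib-Ctrl and 155, 86.6 and 96.1 CPM in Zeb1Fib-deleted replicates 1, 2 and 3. In fibroblast wells the means were 149 ± 9.09 CPM (SD, n = 3) and 170.1 ± 49.0 CPM (n = 2; exact two-sided permutation test, p = 0.8, smallest possible p = 0.2), a log2 difference of 0.23 ± 0.25. Ptgis over all wells was 89.8, 27.0 and 15.3 CPM in Zeb1Fib-Ctrl and 43.6, 82.8 and 20.4 CPM in Zeb1Fib-deleted, with a log2 difference of 0.03 ± 0.75. Its 3 highest values were in the mice with the most iCAF-like wells, 64 in Zeb1Fib-Ctrl replicate 1, 72 in Zeb1Fib-deleted replicate 2 and 28 in Zeb1Fib-deleted replicate 1, and the part of these wells in the difference was not tested. Within iCAF-like wells, where too few mice had 10 wells for a test, the values of the genotypes interleaved.

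Ptger4 over all wells was 27.5, 34.4 and 22.1 CPM in Zeb1Fib-Ctrl and 46.8, 28.4 and 34.9 CPM in Zeb1Fib-deleted replicates 1, 2 and 3. The means were 28.0 ± 6.17 and 36.7 ± 9.30 CPM (SD, n = 3 mice each; exact two-sided permutation test, p = 0.2, smallest possible p = 0.1), a log2 difference of 0.30 ± 0.36 over all wells and -0.07 ± 0.56 in fibroblast wells. Hpgd over all wells was 10.3, 27.0 and 24.7 CPM in Zeb1Fib-Ctrl and 7.64, 103 and 16 CPM in Zeb1Fib-deleted, a log2 difference of 0.99 ± 0.97. That difference rested on Zeb1Fib-deleted replicate 2, which held 27 of the 37 squamous epithelium wells, and was -0.95 without it. In fibroblast wells the difference was -1.20 ± 1.09. Over the 6 genes the median log2 difference was 0.07 in all wells and -0.05 in fibroblast wells, against -0.05 and 0.00 over all genes tested.

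**Figure D4:**
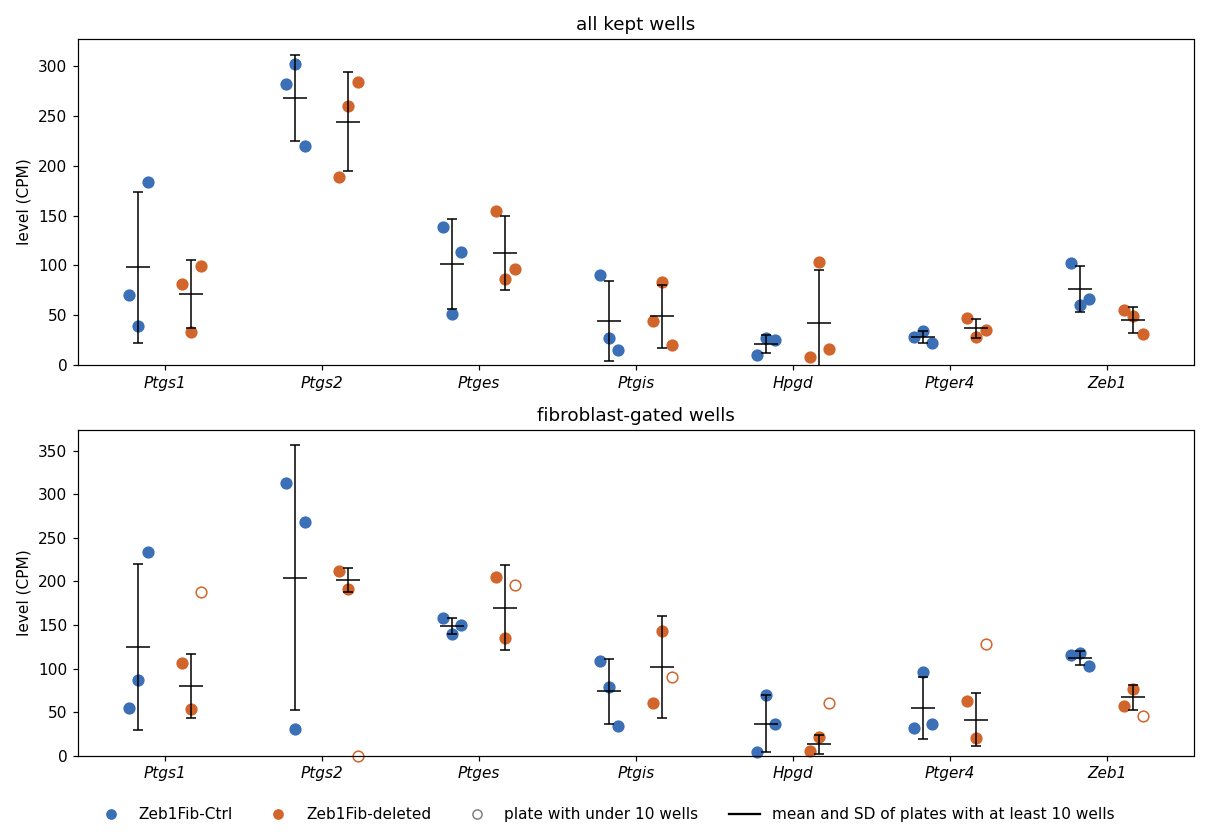
Level (vertical axis, CPM) of 6 genes and of Zeb1 in each mouse, over all kept wells (top) and fibroblast wells (bottom), blue for Zeb1Fib-Ctrl and orange for Zeb1Fib-deleted, with the mean and SD of plates with at least 10 wells; the SD bar of Hpgd in Zeb1Fib-deleted goes below 0 and is cut at the axis. The points of both genotypes overlap for each of the 6 genes and not for Zeb1, and the open points are Zeb1Fib-deleted replicate 3 with 9 fibroblast wells.

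Of the 28 further pathway genes 16 were tested between genotypes over all wells, 10 in fibroblast wells and 2 in neutrophil wells, and 0 were called in each. Their median log2 differences were 0.04, -0.15 and -0.28, against -0.05, 0.00 and 0.01 over all genes tested.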

How the data were processed

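Single cells from colon tumors of 3 Zeb1Fib-Ctrl and 3 Zeb1Fib-deleted mice were measured by SORT-seq, 1 plate per mouse. The authors assigned read 1 to wells, mapped read 2 with bwa (transcriptome of GRCm38) and counted barcodes with a script of the sequencing provider, and the submitters' processing notes also name Cell Ranger 2.1.1. They deposited whole barcode counts per gene and well, and estimated counts of transcripts derived from them. Only genes with at least 1 count on a plate are listed. Spike-ins (7.84 to 18.6% of the transcripts of a plate) were left out.

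A well needed 100 to 6000 genes, with less than 10% of its counts from the mitochondrial chromosome. That filter removed 740 wells that a 30% limit would keep. A well was gated to the marker list with the highest score, with at least 3 markers found. Of 1060 gated wells 215 lay within 0.5 SD of the next list, and of 413 subtyped wells 74. Each well was meant to hold 1 cell, no doublet caller was run, and well names are shared by all plates by design. Estimated counts were summed per plate and class (at least 10 wells), rounded, and tested with edgeR 4.0.16 in R 4.3.3 (TMM, quasi-likelihood, Benjamini-Hochberg over all genes tested). The plate was a term between classes and subtypes. Levels are CPM of the summed transcripts, and genotype means were tested by exact permutation of the mice, two-sided, in SciPy 1.17.1. Shares of wells have 95% exact Clopper-Pearson intervals. The fits were also run on simulated data with the same spread for every gene and no plate effect. These data differ in both, so that run does not show how the fits behave here. DESeq2 1.42.0, other filters and gates, and leaving out each mouse were alternatives. A gene named beyond the 7 members is one of the up to 6 largest called differences of the pathway list, or one of the 3 genes most like a member. The members, marker lists and pathway list were chosen with earlier results of these data known. Genotype differences within subtypes and pericytes were not tested, since too few mice had 10 such wells. Positions come from GENCODE vM21 and promoters from RefSeq.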

Additional observations from a re-analysis of the deposited data

Results flagged for a closer look

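Hpgd in squamous epithelium wells stood at 343 CPM over all plates, in a class that no comparison used. The level was 476, 153 and 379 CPM in Zeb1Fib-Ctrl replicates 1 and 3 and Zeb1Fib-deleted replicate 1, on 3, 4 and 2 wells, and 349 CPM in Zeb1Fib-deleted replicate 2 on 27 wells. One well held 27.6% of the 171 transcripts. These wells carried a transcript in 14 of 37 cases, and EPCAM-positive cells were meant to be removed by the sort.

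Ptgs1 in glandular epithelium wells stood at 185 CPM, close to the telocyte-like level of 199 CPM. It was found in 15 of 54 wells. In Zeb1Fib-Ctrl replicate 1, 2 wells held 44.1 of the 96.2 transcripts (1769 CPM), while 23 wells of Zeb1Fib-Ctrl replicate 3 held 134 CPM and 24 wells of Zeb1Fib-deleted replicate 3 held 100.1 CPM.

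Ptgs2 in wells that no marker list claimed stood at 472 CPM, in 33 of 173 wells. A single well of Zeb1Fib-deleted replicate 2 held 161 of the 370.5 transcripts (43.5%). Of the 33 wells, 15 also carried S100a8, a neutrophil marker. In the same way, 1 glandular epithelium well of Zeb1Fib-deleted replicate 3 held 97.1 of that class's 112 Ptgs2 transcripts.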

How the results depend on the processing

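No paired analysis was possible because the labels give no replicate numbers, and the numbers used here follow accession order only. The alternative of at least 3 wells per sum was chosen after seeing the data. Of 264 alternative values of called class and subtype differences, 224 kept direction and call, 39 lost the call and 1 changed sign. Of 184 values of genotype differences, 157 kept direction and 27 changed sign, all without a call. The subtype fit could not be made without Zeb1Fib-Ctrl replicate 1 or Zeb1Fib-deleted replicate 1. Leaving out any other mouse kept the sums of both, so those values are no separate test of a subtype difference. Where calls changed, the cause was not tested, and the number of mice and wells limits each.

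Genes called between genotypes were 1 with DESeq2 over all wells. In fibroblast wells they were 82 without a filter on low genes and 0 to 13 when a mouse was left out (13 without Zeb1Fib-deleted replicate 1). In neutrophil wells they were 5 without a filter, 3 without Ptprc or Epcam wells, 6 with at least 20 wells and 0 to 1 when a mouse was left out (1 without Zeb1Fib-Ctrl replicate 1). Between classes, fibroblast calls (2630) were 5341 without a filter and 1603 with at least 20 wells, pericyte calls (2068) were 3221, 1126 and 1192 to 2609 when a mouse was left out (1192 without Zeb1Fib-deleted replicate 1), and neutrophil calls (3366) were 5989 without a filter. Among subtypes, iCAF-like calls (1351) were 477 with DESeq2, 836 with a gate margin and 750 with at least 3 wells, telocyte-like calls (1273) were 496, 781 and 670, and Cxcl13/Grem1 calls (239) were 415 without a filter, 92 with DESeq2 and 114 without the plate term. Shares of wells at 1000 barcodes and unthinned were 42.2 and 42.7% for Ptgs2 in neutrophil, 13.3 and 40.5% for Ptgs2 and 14.9 and 73.3% for Ptges in fibroblast, and 20.8 and 72.5% for Ptgis in iCAF-like wells, and 81.1% unthinned for Ptgs1 in telocyte-like wells.

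The only called difference that changed sign was Ptges in pericytes, from -2.38 to 0.34 when a mouse was left out, the latter without Zeb1Fib-deleted replicate 1. Among uncalled ones, Ptgs2 in telocyte-like wells became 0.64 under both other mitochondrial filters, 0.65 with 2 markers and 0.49 with at least 3 wells. Ptgis in Cxcl13/Grem1 wells became -0.79 without the plate term, -1.16 under both mitochondrial filters, -0.70 with 2 markers and -1.27 with at least 3 wells. Hpgd in telocyte-like wells became 1.28 without the plate term, and Ptgis in neutrophils 0.35 with at least 20 wells.

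Of genotype differences over all wells, those that changed sign when a mouse was left out ran from -0.95 to 1.54 for Hpgd (lowest without Zeb1Fib-deleted replicate 2), -0.22 to 0.43 for Ptges (lowest without Zeb1Fib-deleted replicate 1), -0.56 to 1.12 for Ptgis (without Zeb1Fib-deleted replicate 2 and Zeb1Fib-Ctrl replicate 1) and -0.78 to 0.17 for Ptgs1 (highest without Zeb1Fib-Ctrl replicate 3). Ptgis became -0.069 and -0.063 under the other mitochondrial filters, and Ptgs2 0.083 without Ptprc or Epcam wells. In fibroblast wells such ranges were -1.12 to 0.44 for Ptger4, -0.040 to 0.45 for Ptges, -0.37 to 1.05 for Ptgis, -1.06 to 0.29 for Ptgs1 and -0.49 to 0.47 for Ptgs2. Ptger4 became 0.23 and 0.25 under the mitochondrial filters, 0.015 with a gate margin, 0.38 with at least 20 wells and 0.28 with at least 3 wells, and Ptgs2 0.0061 with DESeq2. In neutrophil wells Ptgs2 ran from -0.20 to 0.46 when a mouse was left out, and became -0.20 without Ptprc or Epcam wells and -0.019 with at least 20 wells.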

Other observations

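Smooth muscle wells entered no comparison. In the mice with at least 10 of them, Zeb1Fib-Ctrl replicate 1 and Zeb1Fib-deleted replicate 1, Ptgs2 was at 363 and 116 CPM, Ptgs1 at 145 and 62.9 CPM and Ptges at 118 and 58 CPM. Ptger4 was at 9.05 and 24.2 CPM, and no Ptgis transcript was counted in either mouse.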
